A study of Homo sapiens with 13 samples.

Results

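The genes described here are 10 targets of FOXO transcription factors and of quiescence, PIK3IP1, PDK4, IRS2, SESN1, SESN3, KLF9, TXNIP, BCL6, CCNG2 and GADD45A. Every ATAC-seq peak that overlapped the body of one of them, extended by 10 kb on each side in the GENCODE release 44 annotation on GRCh37 (the hg19 assembly), was taken as a member. This gave 45 of 129347 peaks. A TSS peak overlaps a transcript start of the gene itself, and 10 peaks did so. Another 3 overlapped only the start of a different gene, and the remaining 32 are called flanking peaks. Accessibility was compared between G1 and M-phase in T98G, an established human glioblastoma line, with 3 libraries per phase. G1 cells had been deprived of serum for 72 h, a treatment that takes cultured cells out of the cycle. M-phase cells had been starved for 48 h, released for 36 h into serum medium with nocodazole, which depolymerizes microtubules and holds cells in mitosis, and collected by shaking them off. The phases therefore also differ in serum supply, drug and harvest, whose part cannot be told apart from that of the phase.

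FOXO factors are phosphorylated by AKT when insulin or growth factors are present and are then kept out of the nucleus. Without growth factors they enter the nucleus, bind sites with the core GTAAACA and activate genes for nutrient conservation, stress resistance, dampening of growth signals and withdrawal from the cell cycle. ATAC-seq reads out where the Tn5 transposase can cut chromatin, so it measures how open a promoter is and not how much RNA is made from it.

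The FOXO core occurred 6 times in the members' peaks, in 5 peaks of 4 genes, and each time it reads GTAAACA in the direction of the gene's transcription. Both strands were searched. The direction of matches over all peaks was not counted, so no preference for a direction can be read from this. Whole TSS peaks held it in 3 of 10 cases among the members and in 9.16% of all TSS peaks, and flanking peaks in 1 of 32 cases and in 4.95% of all peaks without a TSS. In the central 200 bp it was found in 0 of the 10 TSS peaks, against 1.26% of all. The matches are shown with 30 bp on each side (GRCh37 reference, 5′ to 3′ on the gene's strand) because they are the sequence feature after which the gene group is named, and capitals mark the core.
PDK4, TSS peak, 354 bp before the TSS, chr7:95226152-95226218, minus strand: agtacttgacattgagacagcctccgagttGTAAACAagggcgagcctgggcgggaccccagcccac
TXNIP, TSS peak, 124 bp before the TSS, chr1:145438336-145438402, plus strand: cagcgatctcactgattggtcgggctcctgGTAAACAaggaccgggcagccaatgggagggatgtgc
TXNIP, TSS peak, 812 bp before the TSS, chr1:145437648-145437714, plus strand: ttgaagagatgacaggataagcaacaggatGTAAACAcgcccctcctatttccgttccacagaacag
PIK3IP1, TSS peak, 1738 bp into the gene, chr22:31686706-31686772, minus strand: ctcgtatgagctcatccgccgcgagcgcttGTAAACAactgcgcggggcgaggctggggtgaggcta
KLF9, peak beside the TSS, 626 bp into the gene, chr9:73028917-73028983, minus strand: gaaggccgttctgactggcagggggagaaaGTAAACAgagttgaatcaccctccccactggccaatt
KLF9, upstream peak, 6262 bp before the TSS, chr9:73035805-73035871, minus strand: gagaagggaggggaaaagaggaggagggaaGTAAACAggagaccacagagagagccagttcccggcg
The 3 TSS peaks with a match did not move alike: that of PIK3IP1 was higher in M-phase, that of PDK4 lower, and that of TXNIP was not called, with values given below in the order of the genes' roles.

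All values are scaled reads, that is, reads in a peak scaled by the authors to the smallest library. The scaled reads over all peaks added up to between 4191845 and 5092426 in the G1 libraries and between 5475345 and 6000423 in the M-phase libraries, so the phases' totals do not overlap. A single read was worth 0.78 to 1 scaled reads in G1 and 0.41 to 0.48 in M-phase, where more reads were sequenced. Of the promoters that mark T98G cells and related mesenchymal and astroglial cells, 4 of 6 had a TSS peak (VIM, CD44, FN1 and CAV1), while NES and GFAP had none. Among markers of other cell types, PTPRC, CD3E, CDH1 and RBFOX3 had no TSS peak, and PECAM1 was not found in the annotation. The epithelial marker EPCAM had an accessible TSS peak, with a mean of 91.6 scaled reads in G1 and 106.8 in M-phase, which was not called as different. The labels do not say that replicates came from separate cultures, so p-values measure the spread between these libraries, which may be technical. Differences are log2 changes of (scaled reads + 8), M-phase over G1, with their standard error (SE), from limma with Benjamini-Hochberg adjustment over the 73121 peaks tested, and a peak is called at an adjusted p under 0.05. Of the 5 TSS peaks of VIM, CD44, FN1 and CAV1, 4 were called higher in M-phase and 0 lower, with a median log2 change of 0.91, and 2 higher and 0 lower with a loess curve that removes the trend of change with level.

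At the TSS, 7 of the 10 peaks were more accessible in M-phase, those of BCL6, IRS2, CCNG2, GADD45A, PIK3IP1 and both starts of SESN1. The TSS peaks of PDK4 and SESN3 were less accessible in M-phase, and that of TXNIP was not called. Among all 15500 TSS peaks tested, 43.2% were called higher in M-phase and 5.94% lower. The libraries of the phases did not overlap at any of the 10 TSS peaks, which was so for 57.2% of all TSS peaks tested. The members' median log2 change was 0.73, with a range from -0.81 to 1.12, and the median over all TSS peaks was 0.39. Direction at the TSS depended on how libraries were scaled. With an equal total in peaks, 5 member TSS peaks were higher and 2 lower, beside 29.3% and 17.2% of all TSS peaks tested, and the median over all TSS peaks was 0.07. With the loess curve, 2 were higher and 3 lower, beside 21.3% and 17.1% of all TSS peaks, with a median of 0.06 over all of them. The member TSS peaks held a median of 237 scaled reads over the 6 libraries, against 150 for all TSS peaks, and among all TSS peaks the change rose with the level, as the plot of change against level shows. Their median GC content of 62.8% was close to the 62.7% of all TSS peaks.

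**Figure D1:**
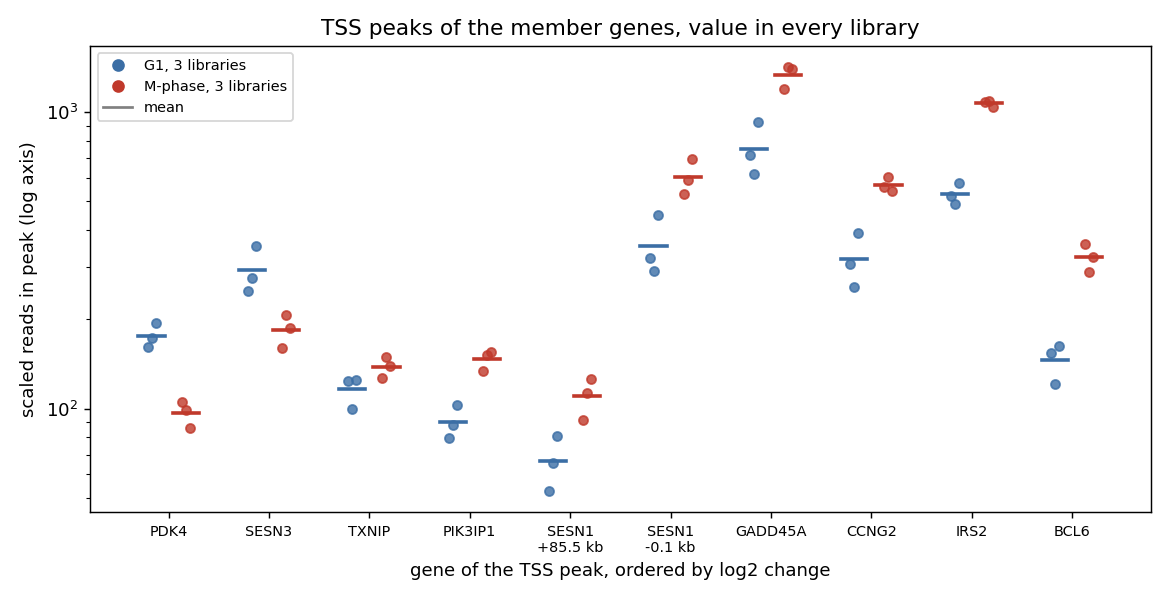
Scaled reads (log axis) in each of the 3 G1 and 3 M-phase libraries for the 10 TSS peaks, ordered by log2 change, with the mean as a line. At PDK4 and SESN3 the G1 libraries lie above the M-phase libraries, and at the other 8 peaks the M-phase libraries lie above, narrowly so at TXNIP (100 to 125 against 126.5 to 149.2).

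**Figure D2:**
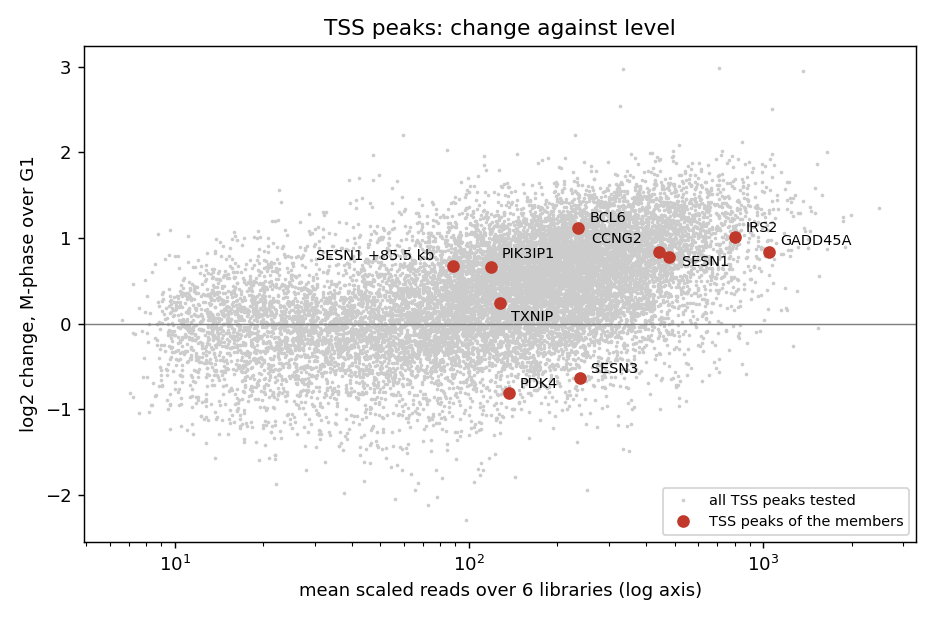
Log2 change, M-phase over G1, against the mean scaled reads over 6 libraries (log axis), for all 15500 TSS peaks tested (grey) and the members (red). The grey cloud rises with level, and the members at the highest levels, GADD45A and IRS2, lie within it, while PDK4 and SESN3 lie at its lower side (percentiles 3.1 and 5.1 of all TSS peaks).

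The first genes in the order of the pathway restrain or relay insulin signalling. PIK3IP1 encodes a membrane protein that inhibits PI3K, the kinase upstream of AKT. Its TSS peak (chr22:31686574-31687257) held 79.5, 88.3 and 103 scaled reads in the G1 libraries and 133.9, 151.2 and 155.9 in the M-phase libraries, so every M-phase library exceeded every G1 library. The means were 90.3 ± 11.9 and 147 ± 11.6 (SD, n = 3), a log2 change of 0.66 (SE 0.20, adjusted p = 0.00936, limma). The call was lost with equal totals (log2 change 0.33, adjusted p = 0.149), with the loess curve (0.42, adjusted p = 0.0757) and without G1 replicate 1, M-phase replicate 2 or M-phase replicate 3 (adjusted p from 0.0572 to 0.067). This peak covers the starts of 2 retained-intron transcripts, and the start of the canonical transcript, 1217 bp away, lay in no peak.

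IRS2, an adaptor that carries the signal from the insulin receptor to PI3K, had the widest of the members' TSS peaks (chr13:110437107-110440163). The G1 libraries held 520, 490.6 and 577 scaled reads and the M-phase libraries 1079.3, 1089.8 and 1042.7. This is 529 ± 43.9 against 1071 ± 24.7 (SD, n = 3), a 2.02-fold difference and a log2 change of 1.01 (SE 0.15, adjusted p = 5.88e-08, limma), but with the loess curve it was -0.05 (adjusted p = 0.705). The peak also covers the start of the lncRNA gene ENSG00000275741.

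In contrast to its promoter, the flanking peak of IRS2 (chr13:110396162-110396602, 42.5 kb downstream of the TSS and beyond the end of the gene) lost accessibility in M-phase. Its G1 libraries held 43.7, 34.4 and 60 scaled reads and its M-phase libraries 12.8, 13.2 and 10.1, with no overlap. Means were 46.0 ± 13.0 and 12.0 ± 1.7 (SD, n = 3), a log2 change of -1.41 (SE 0.28, adjusted p = 3.42e-05, limma), and the fall was called under all 15 alternatives. M-phase replicate 3 fell below the value the filter on low values asked of it, so the peak passed only with its G1 libraries. With at least 10 in every library the fall was also called (adjusted p = 2.79e-06, limma). It was the steepest fall among the tested peaks of the 10 genes. The central 200 bp of the peak are shown for that reason, on the strand of IRS2, with CpG sites in capitals.
IRS2 downstream peak, chr13:110396283-110396482, GRCh37, minus strand: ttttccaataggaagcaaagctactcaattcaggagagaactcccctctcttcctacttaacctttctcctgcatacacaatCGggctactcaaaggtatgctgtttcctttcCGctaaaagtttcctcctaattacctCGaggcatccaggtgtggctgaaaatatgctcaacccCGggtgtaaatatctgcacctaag
It holds 4 CpG sites and has a GC content of 45.0%, and within the whole peak the AP1 motif TGANTCA occurred once, near the peak's edge.

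PDK4 encodes pyruvate dehydrogenase kinase, which turns fuel use from glucose to fatty acids during starvation. Its TSS peak (chr7:95225281-95226369), which it shares with the lncRNA PDK4-AS1, held 161.1, 172.7 and 195 scaled reads in G1 and 105.5, 99.3 and 86.1 in M-phase. All M-phase libraries were lower than all G1 libraries. The fall from 176 ± 17.2 to 97.0 ± 9.9 (SD, n = 3) was a log2 change of -0.81 (SE 0.20, adjusted p = 0.000893, limma) and was called under all 15 alternatives (adjusted p from 1.73e-07 to 0.0159). None of the 8 flanking peaks of PDK4 was called, but most were too weak to be tested. Of all 9 PDK4 peaks, 4 were tested, the TSS peak among them. The strongest flanking peak (chr7:95234569-95234919, 8.9 kb upstream) held 30.8, 23.4 and 24 scaled reads in G1 and 21.4, 29.3 and 34.6 in M-phase, so the phases overlapped (log2 change 0.09, SE 0.27, adjusted p = 0.858, limma, and below 0 with TMM, with equal totals and without M-phase replicate 3). At 20.9 kb downstream of the TSS, a tested peak held 8.9, 3.9 and 9 scaled reads in G1 and 14.8, 11.5 and 22.6 in M-phase. These did not overlap, but the peak was not called (log2 change 0.66, SE 0.29, adjusted p = 0.074, limma). It passed the filter on low values only through its M-phase libraries, where it was high, so the lack of overlap carries little weight. The flanking peaks of PDK4 with an AP1 motif, 13.5 and 7.4 kb downstream of the TSS, were weak, and only the former passed the filter on low values (log2 change -0.08, adjusted p = 0.883, limma).

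The next genes act in stress and redox control. SESN1 and SESN3 encode sestrins, which restrain mTORC1 and oxidative stress. Their promoters changed in opposite directions. The canonical SESN1 start (chr6:109415230-109417019, shared with the protein-coding gene CEP57L1) held 323.1, 291.4 and 450 scaled reads in G1 and 529.8, 590.9 and 697.2 in M-phase. The means were 355 ± 83.9 and 606 ± 84.7 (SD, n = 3), a log2 change of 0.77 (SE 0.17, adjusted p = 0.000139, limma), which was -0.07 with the loess curve (adjusted p = 0.666). An internal start of SESN1 (chr6:109330024-109331073, 85.5 kb downstream) was weaker, with 52.7, 65.6 and 81 scaled reads in G1 and 91.9, 113.3 and 126.1 in M-phase. Its log2 change of 0.68 (SE 0.22, adjusted p = 0.0137, limma) was not called with equal totals (0.35, adjusted p = 0.166) or without G1 replicate 1, M-phase replicate 2 or M-phase replicate 3 (adjusted p from 0.0762 to 0.103). With the loess curve it was still called higher (0.57, adjusted p = 0.0263).

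The SESN3 promoter (chr11:94963403-94964878, shared with the lncRNA gene LNCRNA-IUR) held 248.5, 276.6 and 355 scaled reads in G1 and 160.2, 206.4 and 187.2 in M-phase, again without overlap. From 293 ± 55.2 to 185 ± 23.2 (SD, n = 3) the log2 change was -0.64 (SE 0.18, adjusted p = 0.00484, limma), and the call was lost only without M-phase replicate 1 (-0.54, adjusted p = 0.0571). TXNIP, which binds thioredoxin and limits glucose uptake, had a TSS peak (chr1:145437612-145438819) of 124.3, 100 and 125 scaled reads in G1 and 126.5, 149.2 and 139.5 in M-phase. Its libraries separated by phase, but only just. The log2 change of 0.24 (SE 0.20, adjusted p = 0.419, limma) was -0.10 with equal totals and -0.05 with the loess curve. TXNIP is the member with the most FOXO cores at its TSS, both shown above.

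Both transcription factors of the group, KLF9 and BCL6, had several accessible peaks. KLF9 encodes a zinc finger factor induced by glucocorticoids and in quiescent cells. No peak overlapped its TSS, but a peak that ends 176 bp inside it (chr9:73026803-73029397) held 309.2, 221.9 and 397 scaled reads in G1 and 512.5, 615.2 and 660.2 in M-phase. With 309 ± 87.6 against 596 ± 75.7 (SD, n = 3), the log2 change was 0.96 (SE 0.17, adjusted p = 4.98e-06, limma), or 0.15 with the loess curve (adjusted p = 0.363). An intronic peak 8.0 kb downstream of the TSS (chr9:73021395-73021813) went the other way, with 30.8, 21.1 and 27 scaled reads in G1 and 16.9, 8.2 and 11.5 in M-phase. Its log2 change was -0.78 (SE 0.29, adjusted p = 0.0335, limma), and it missed the threshold with the loess curve (adjusted p = 0.0667) and without G1 replicate 1 or 3 or M-phase replicate 2 or 3 (adjusted p from 0.0702 to 0.181). This intronic peak passed the filter on low values only through its G1 libraries, where it was high. With at least 10 in every library it was not tested. The strong peak 5.1 kb upstream (chr9:73033422-73035948), at the start of the lncRNA gene ENSG00000289159, held 532.9, 558.6 and 755 scaled reads in G1 and 663.2, 800.2 and 702.5 in M-phase, which overlap, and was not called (log2 change 0.24, SE 0.16, adjusted p = 0.27, limma).

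BCL6, a transcriptional repressor best known from germinal centre B cells, showed the largest gain of accessibility in the group. All 6 peaks within the first 7 kb of the gene were higher in M-phase, and each was called under all 15 alternatives. Its TSS peak (chr3:187462783-187463711, shared with the lncRNA gene ENSG00000289331) held 154.1, 121.1 and 163 scaled reads in G1 and 360.5, 290.1 and 325.8 in M-phase. The rise from 146 ± 22.1 to 325 ± 35.2 (SD, n = 3) was a log2 change of 1.12 (SE 0.18, adjusted p = 8.02e-07, limma), and 0.60 with the loess curve (adjusted p = 0.000992).

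The BCL6 peak that changed most lies in an intron, 4.3 kb downstream of the TSS (chr3:187458423-187459574). It held 54.7, 55.5 and 81 scaled reads in G1 and 275.6, 312.7 and 308.4 in M-phase, so the lowest M-phase library exceeded the highest G1 library by a wide margin. The means were 63.7 ± 15.0 and 299 ± 20.3 (SD, n = 3), a 4.69-fold difference and a log2 change of 2.12 (SE 0.20, adjusted p = 1.02e-14, limma). With the loess curve the change was 1.78 and with equal totals 1.79. In G1 this peak was less accessible per kb than the TSS peak (55.3 against 157 scaled reads per kb), and in M-phase the levels were 259 and 350 scaled reads per kb. Its central 200 bp are shown because they carry the largest difference of the gene group, on the strand of BCL6 with CpG sites in capitals.
BCL6 intronic peak, chr3:187458899-187459098, GRCh37, minus strand: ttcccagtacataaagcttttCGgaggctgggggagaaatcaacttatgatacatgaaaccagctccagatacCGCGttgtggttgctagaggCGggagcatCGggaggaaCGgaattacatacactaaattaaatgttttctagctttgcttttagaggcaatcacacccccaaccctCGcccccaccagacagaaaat
These bases hold 7 CpG sites at a GC content of 47.0%.

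The neighbouring BCL6 peaks changed less but in the same direction. At 5.5 kb (chr3:187457460-187458114) the libraries held 61.6, 63.3 and 47 scaled reads in G1 and 127.7, 163.6 and 184.8 in M-phase (log2 change 1.35, SE 0.21, adjusted p = 3.74e-07, limma). At 6.5 kb (chr3:187456407-187457175) the values were 53.7, 76.6 and 64 in G1 and 126.5, 130.6 and 145.8 in M-phase (log2 change 0.98, SE 0.21, adjusted p = 0.000178, limma). Both are intronic. The remaining peaks lie at starts of genes annotated inside BCL6: at 1.5 kb (chr3:187461460-187462111, ENSG00000285938, a protein-coding model without a symbol) the log2 change was 1.42 (SE 0.23, adjusted p = 4.68e-07, limma), and at 0.6 kb (chr3:187462480-187462750, the lncRNA ENSG00000290021) it was 1.19 (SE 0.26, adjusted p = 0.000219, limma). The AP1 motif TGANTCA was found in the intronic peaks at 5.5 and 4.3 kb and is shown with 30 bp on each side, in capitals, since these are the flanking peaks with the largest rises.
BCL6, peak at 5.5 kb, chr3:187457687-187457753, GRCh37, minus strand: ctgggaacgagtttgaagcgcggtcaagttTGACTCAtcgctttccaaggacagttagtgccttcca
BCL6, peak at 4.3 kb, chr3:187459464-187459530, GRCh37, minus strand: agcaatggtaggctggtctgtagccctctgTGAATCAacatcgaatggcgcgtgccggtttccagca
Over the group, 8 of 32 flanking peaks held this motif, against 18.27% of all peaks without a TSS. In the central 200 bp it was found in 4 of the 32, against 12.88% of all, and the match in the 4.3 kb peak lay outside this window. The flanking peaks of IRS2 and GADD45A, which were lower in M-phase, also held the motif. Further away, the peak 30.9 kb downstream of the TSS was not called (log2 change -0.22, SE 0.28, adjusted p = 0.614, limma), and the peaks at 25.1 kb and at 5.2 kb upstream were below the filter on low values.

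**Figure D3:**
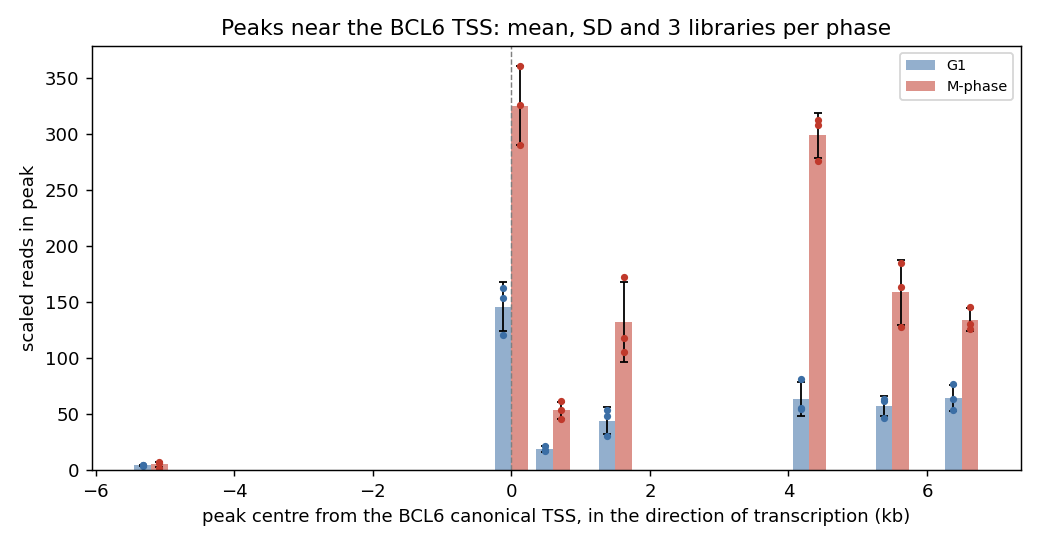
Scaled reads in the BCL6 peaks from 5.2 kb upstream to 6.5 kb downstream of the canonical TSS, by position of the peak centre in kb, with mean (bar, G1 to the left), SD (error bar) and the 3 libraries of each phase (points). The 6 peaks from the TSS onwards are higher in every M-phase library, most of all at 4.3 kb (299 against 63.7), while the upstream peak stays near 5 in both phases.

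The last pair of genes acts on the cell cycle. CCNG2 encodes cyclin G2, an atypical cyclin that accumulates in cells leaving the cycle. Its TSS peak (chr4:78077756-78079671) held 307.2, 257.8 and 391 scaled reads in G1 and 560.7, 604.5 and 543.7 in M-phase, without overlap. The log2 change was 0.84 (SE 0.17, adjusted p = 3.47e-05, limma), and 0.03 with the loess curve (adjusted p = 0.879). All 7 of its flanking peaks were too weak to be tested. They come with a gene model of 276.2 kb, whereas the canonical transcript spans 12.9 kb.

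GADD45A, a growth arrest and DNA damage inducible protein that binds PCNA and CDK1, had the highest mean level per kb of the members' TSS peaks in both phases. The peak (chr1:68150027-68152626) held 714.8, 617.2 and 930 scaled reads in G1 and 1201.7, 1419.5 and 1400.2 in M-phase. From 754 ± 160.0 to 1340.5 ± 120.6 (SD, n = 3) the log2 change was 0.84 (SE 0.15, adjusted p = 3.64e-06, limma), but with the loess curve the same peak was called lower in M-phase (-0.34, adjusted p = 0.000373). The flanking peak of GADD45A, 10.2 kb upstream (chr1:68140221-68141117), was lower in M-phase, with 70.6, 67.2 and 103 scaled reads in G1 and 52.7, 40 and 36.1 in M-phase. It was also called lower with TMM (-0.90), with equal totals (-1.09) and with the loess curve (-0.73). Its log2 change of -0.78 (SE 0.24, adjusted p = 0.00768, limma) was not called without G1 replicate 3 (adjusted p = 0.0563) or without M-phase replicate 3 (adjusted p = 0.055). This peak holds the members' only match to the CRE motif TGACGTCA, 1 of 32 flanking peaks, which 0.24% of all peaks without a TSS hold. The match lay outside the central 200 bp, where 0 of the 32 and 0.14% of all held it. The peak also holds an AP1 motif.

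**Figure D4:**
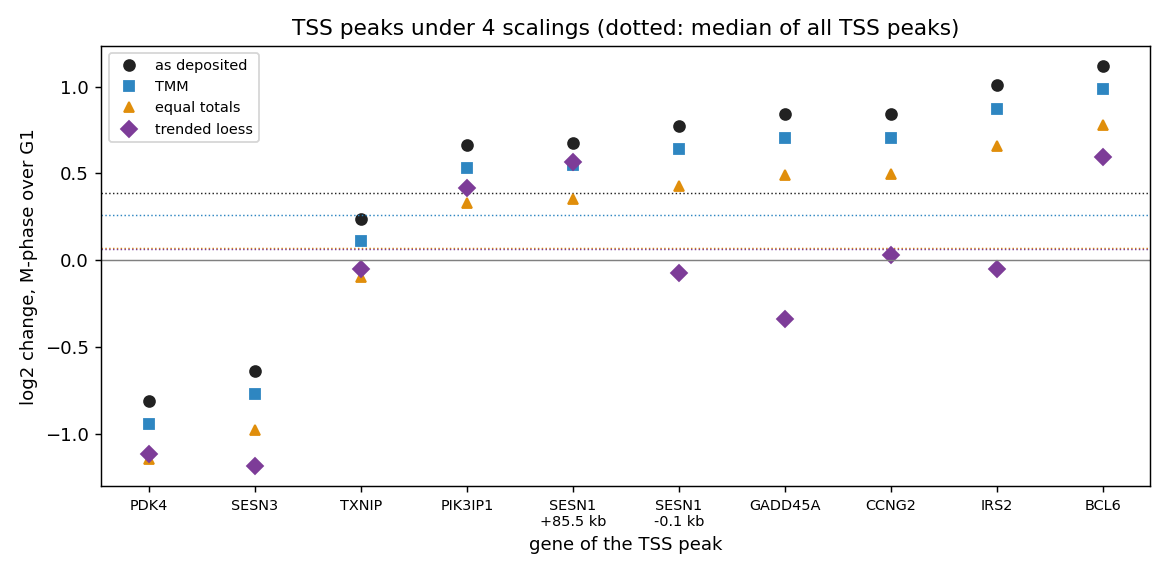
Log2 change, M-phase over G1, of each member TSS peak under 4 scalings of the libraries, with the median of all TSS peaks under each scaling dotted. PDK4 and SESN3 stay below 0 under every scaling. BCL6, PIK3IP1, the internal SESN1 start and CCNG2 stay above 0, CCNG2 only just with the loess curve (0.03). IRS2, the canonical SESN1 start and GADD45A fall below 0 with the loess curve, and TXNIP with the loess curve and with equal totals.

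Per kb of peak, the order of the TSS peaks differed between the phases. In G1, GADD45A led with 290 ± 61.6 scaled reads per kb (SD, n = 3), followed by SESN3 with 199 ± 37.4 and the canonical SESN1 start with 198 ± 46.9. IRS2, CCNG2, PDK4 and BCL6 came next, between 173 and 157, and the libraries of each peak down to PIK3IP1 (132 ± 17.4) overlapped with those of its neighbour in the order. TXNIP (96.4 ± 11.8) and the internal SESN1 start (63.3 ± 13.5) were below all G1 libraries of the peak before them. In M-phase GADD45A (516 ± 46.4) stood apart from the rest. BCL6, IRS2, the canonical SESN1 start and CCNG2 followed between 350 and 297, each overlapping with its neighbour, and PIK3IP1 (215 ± 16.9) stood apart below them. SESN3 was seventh with 125 ± 15.7, and PDK4, sixth in G1 with 162 ± 15.8, was last with 89.0 ± 9.1, although its libraries overlapped with those of the internal SESN1 start.

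Away from the TSS the picture was mixed. Of the 32 flanking peaks, 11 passed the filter on low values, of which 4 were higher in M-phase (3 in BCL6 and the one beside the KLF9 TSS), 3 were lower (IRS2, GADD45A and the KLF9 intron) and 4 were not called. The KLF9 intronic peak passed this filter only through its G1 libraries, where it was high, so its call as lower carries little weight. Among the 57621 peaks without a TSS that were tested, 6.51% were called higher and 15.0% lower. The phases' libraries did not overlap at 8 of the 11 peaks, against 33.3% of all tested peaks without a TSS. These 8 include the KLF9 intronic peak and the IRS2 peak, which passed the filter only with their G1 libraries, where they were high. They also include the PDK4 peak 20.9 kb downstream, which passed only through M-phase, where it was high. The count therefore carries little weight. The median log2 change of the 11 was 0.09, against -0.05 for all, and it lay below 0 with TMM and with equal totals. Flanking peaks of the members were weak, with a median of 7.7 scaled reads. Their median width was 206 bp, against 254 bp over all 129347 peaks, TSS peaks included. The 21 untested peaks, in PIK3IP1, PDK4, SESN3, KLF9, TXNIP, BCL6 and CCNG2, had means of at most 9.9 scaled reads over the 6 libraries.

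**Figure D5:**
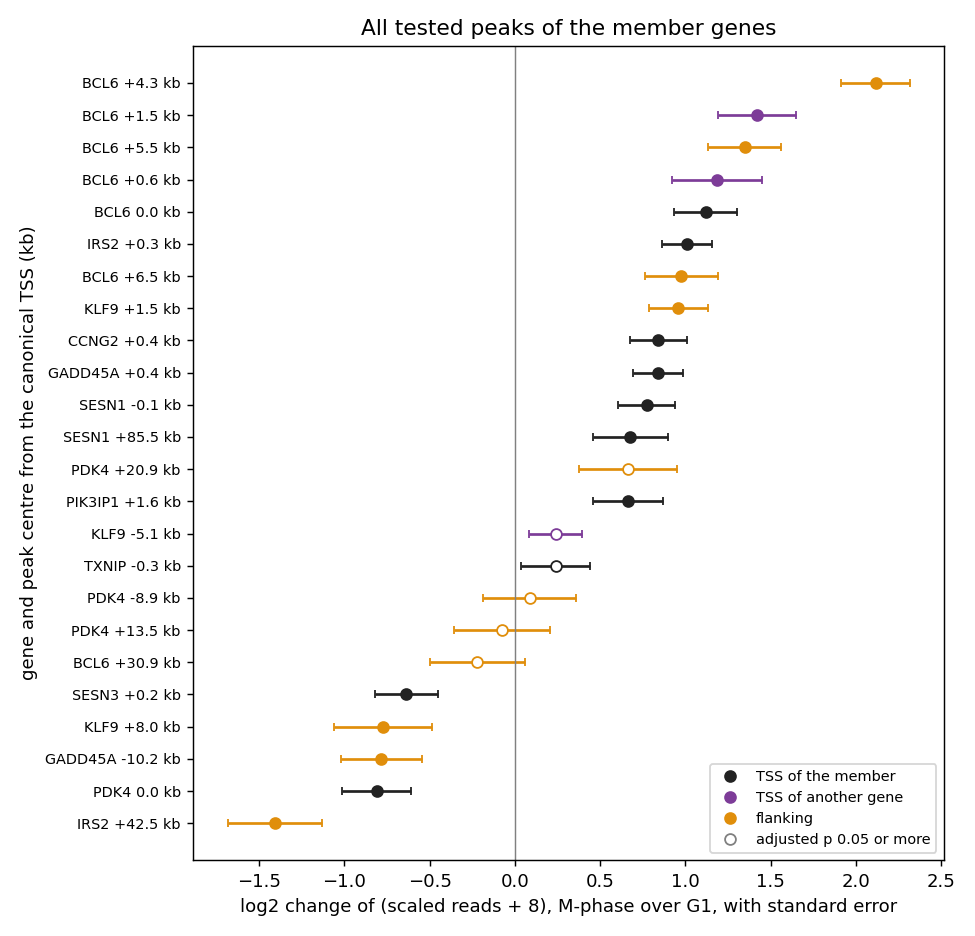
Log2 change of (scaled reads + 8), M-phase over G1, with its standard error for every tested peak of the 10 genes, named by gene and distance of the peak centre from the canonical TSS in kb. Filled points have an adjusted p under 0.05, and the extremes are the BCL6 peak at 4.3 kb (2.12) and the IRS2 peak at 42.5 kb (-1.41).

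The FOXO factors themselves have promoters that were described with those of their pathway. Of the 4 TSS peaks of FOXO1, FOXO3, FOXO4 and FOXO6, that of FOXO3 was higher in M-phase (log2 change 1.16, adjusted p = 2.87e-09, limma), none was lower, and the median was 0.30. With the loess curve the FOXO3 change was 0.14 (adjusted p = 0.26), and the peaks of FOXO1, FOXO4 and FOXO6 were called lower, that of FOXO4 also with TMM and with equal totals. In the insulin, PI3K, AKT and mTOR arm upstream of FOXO, 19 of 24 TSS peaks of 18 genes were higher and 2 lower, with a median of 0.73, and with the loess curve 8 were higher and 4 lower. Among the peaks with the smallest adjusted p were those of the kinase gene SGK1 (1.59, adjusted p = 2.73e-12, limma), the mTORC1 activator RHEB (1.35, adjusted p = 1.16e-11) and PDPK1, which phosphorylates AKT (1.38, adjusted p = 1.5e-10). These 3 were also called higher with the loess curve. The lower peaks included an alternative start of PIK3CA, which encodes a catalytic subunit of PI3K.

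Other known FOXO targets gave a similar count. Of 27 TSS peaks of 20 genes, 21 were higher in M-phase and 0 lower, with a median log2 change of 0.87, and with the loess curve 10 were higher and 1 lower. The smallest adjusted p belonged to a TSS peak of the autophagy gene MAP1LC3B (2.51, adjusted p = 3.86e-25, limma), followed by GADD45B (1.81, adjusted p = 8.28e-17), a relative of GADD45A, the other TSS peak of MAP1LC3B (1.70, adjusted p = 7.13e-15) and the apoptosis gene BBC3 (1.29, adjusted p = 1.27e-11, and 0.14 with the loess curve). Both MAP1LC3B peaks also cover a start of FBXO31. Genes of the DREAM complex, which silences cell cycle genes in quiescence, had 8 of 11 TSS peaks higher and 0 lower, with a median of 0.61, and 3 higher and 0 lower with the loess curve. They were led by DYRK1A, the kinase that promotes its assembly (1.56), and by LIN54 (1.24). INSR and RICTOR stand in both the insulin arm and the target list, and RBL2 in both the target list and the DREAM list, so the counts are not independent. The counts as reported stand beside 43.2% of all TSS peaks called higher and 5.94% lower, and those with the loess curve beside 21.3% and 17.1%.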

How the data were processed

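ATAC-seq values of 3 G1 and 3 M-phase columns of T98G cells were used, and the other samples of the series were not analysed here. The authors deposited signal values with 1 decimal: reads in each peak after every library had been scaled to the smallest. Adapters had been removed with cutadapt and 1 base at the 3′ end, and Rbowtie in QuasR had placed the reads on hg19 with up to 3 locations allowed, so near-identical sequences share reads. Mitochondrial reads were dropped, and macs2 had called broad peaks on the replicates merged by phase. Tool versions and a Tn5 shift are not given in the sources used here. The sample titles name a HiSeq and a NextSeq run for each M-phase replicate, and those of the G1 replicates name no instrument. Platform and phase cannot be told apart, and how the runs were joined is not given in the sources used here. The authors' columns of log2 differences between phases, and their SD, were not used. Of the 3 G1 and 3 M-phase columns taken, none was left out of the fit.

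Peaks were tested with limma 3.58.1 (R 4.3.3, mean-variance trend) on log2(scaled reads + 8), without covariates. The filter, after edgeR's filterByExpr, asked for a value of 10 in a library of median size, in 3 libraries, and for a total of 15. It left 73121 of 129347 peaks. The value asked for scaled with each library's total in peaks, so it was lower in G1 than in M-phase. Between 99.86% and 100% of values were whole multiples of the value of 1 read (within 0.05 scaled reads), and the recovered reads, 4333935 to 5365024 per G1 library and 12470564 to 14202790 per M-phase library, were also tested with edgeR 4.0.16 (quasi-likelihood, TMM), which called 20299 peaks, and DESeq2 1.42.0, which called 18756, against 19987 by limma. Other alternatives were TMM, equal totals, a trended loess curve, other filters, a pseudocount of 1, the replicate block, each replicate left out, and other flanks and TSS definitions. The extent of the canonical transcript was added after seeing the data. Sequences and motifs came from GRCh37 with pysam 0.24.0. Named were all members' TSS peaks, called flanking peaks, the strongest flanking peak of each gene and, per pathway list, at most 4 TSS peaks with the smallest adjusted p. Some peaks that this rule names are not reported here. Other peaks given were chosen after their values were seen. Members, lists and tests were chosen with earlier results of these data known.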

Additional observations from a re-analysis of the deposited data

How the results depend on the processing

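The median log2 change of all peaks tested was 0.02 as reported, -0.08 with TMM, -0.24 with equal totals and 0.04 with the loess curve, and over all peaks 10439 were called higher and 9548 lower as reported, 8875 and 12631 with TMM, 6341 and 18090 with equal totals, and 9567 and 5001 with at least 10 in every library. For the member TSS peaks the median of 0.73 became 0.60 with TMM, 0.39 with equal totals and -0.052 with the loess curve, which called 2 higher in place of 7. Of the pathway lists, 28 TSS peaks were called with the loess curve in place of 49. For the flanking peaks the median of 0.09 became -0.021 with TMM, -0.19 with equal totals, 0.52 with at least 10 in every library, 0.97 with a flank of 2 kb and -0.16 with one of 25 kb. These flanks left 1 and 7 peaks called lower in place of 3. The median of the TSS peaks minus that of the flanking peaks, 0.64, became -0.20 with the loess curve, 0.20 with at least 10 in every library, -0.24 with 2 kb and 0.89 with 25 kb. The cause was not tested. Single peaks that turned were PDK4 at 8.9 kb upstream (-0.021 with TMM, -0.19 with equal totals, -0.034 to 0.233 without single replicates), TXNIP (-0.10 with equal totals, -0.05 with the loess curve) and, with the loess curve, IRS2 (-0.053), the canonical SESN1 start (-0.073) and GADD45A (-0.34).

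Leaving out each replicate in turn, 5 to 7 member TSS peaks were higher and 1 to 2 lower, with a median of 0.65 to 0.89. The count lower was 1 without M-phase replicate 1. Of the flanking peaks, 4 were higher and 1 to 4 lower (1 without G1 replicate 3 or M-phase replicate 3), with a median of -0.27 to 0.094, below 0 without G1 replicate 1 (-0.084), M-phase replicate 1 (-0.081) or M-phase replicate 3. The TSS median minus the flanking median ranged from 0.63 to 0.91, the called member peaks from 12 to 17 in place of 16, and the called pathway peaks from 39 to 52.

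With the replicate number as a replicate block, 7 member TSS peaks were higher and 2 lower, and 20944 of all peaks were called, against 19987 without it. Over the peaks tested, the deviations of same-numbered libraries correlated at 0.01, -0.01 and 0.03. These correlations cannot show whether same-numbered libraries had a culture or preparation in common, which the labels do not say. The number of libraries and the weak flanking peaks limit what could be detected, since 21 of 32 flanking peaks had too few reads to be tested.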
